A study of Mus musculus with 6 samples.

Results

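Probes shared by several genes are array features whose annotation row names 2 or more genes, so that their signal cannot be given to any of those genes alone. Of the 35556 probe sets (called probes here) with a deposited value on each array, 1621 were of this kind. They were found from the platform annotation, by a separator in the gene symbol or gene identifier field, and were kept one by one without being merged into genes. A further 21789 probes named 1 gene and 12146 named none. The 1621 shared probes carried 798 distinct gene lists over 2032 genes, and 627 of these genes also had a probe of their own.

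The arrays were Affymetrix MoGene 1.1 ST arrays of total RNA from lung buds of mouse embryos at E11.5. The 3 control samples had the genotype Shhcre alone. The 3 DKO samples had the genotype Shhcre:Hdac1fl/fl; Hdac2 fl/fl, which is the same Cre allele with both copies of Hdac1 and of Hdac2 floxed. All 6 samples had the same stated mixture of C57BL/6 with 129X1 and 129S1, and the share of each strain in a sample was not given. Shhcre expresses Cre recombinase from the Sonic hedgehog locus, which in the lung is active in the epithelium, so mesenchyme, vessels and blood in the same bud keep both genes. The labels call the arrays biological replicates and do not say how many embryos went into each, so each p-value rests on the spread among these arrays, which may be partly technical. In RNA from a bud, fewer cells of a type and less RNA per cell cannot be told apart.

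Genes can share a probe where their transcripts are nearly the same in sequence. This happens in families of similar copies, often close together in a chromosome, such as vomeronasal receptors, class I histocompatibility genes, histones and chemokines. It also happens in active genes with many processed copies, such as ribosomal protein genes and Gapdh. Genes can share a probe, too, where a small RNA lies inside a longer transcript. Other lists join genes without a common family name, such as Phb with Fyb or Cers1 with Gdf1. Why these share a probe was not determined. The signal of a shared probe adds up all transcripts that it matches, and a change in 1 of them is diluted by the others. Hdac1 and Hdac2 remove acetyl groups from histones within larger complexes and are mostly known as repressors of transcription. Cdkn1a, which encodes the cell cycle inhibitor p21, is a textbook target of Hdac1, and on this array it was named by a shared probe only.

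The sequences around the gene starts are shown for the listed genes on which the results turn and for which RefSeq (build GRCm38.p6) gives a start window of 250 bases before to 50 bases after the start. Of the 2032 listed genes, 1418 had such a window. They are given 5′ to 3′ on the gene's strand, and each is the genomic neighbourhood of the gene and not the probe sequence, which was not used here. Cdkn1a has 2 separate starts in RefSeq. At the downstream start (chr17:29093519-29093818, plus strand) the capitals mark GGGCGG, the core of the GC box, and TATAAG. At the upstream start (chr17:29090729-29091028, plus strand) they mark matches to the p53 half-site.

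Cdkn1a, downstream start: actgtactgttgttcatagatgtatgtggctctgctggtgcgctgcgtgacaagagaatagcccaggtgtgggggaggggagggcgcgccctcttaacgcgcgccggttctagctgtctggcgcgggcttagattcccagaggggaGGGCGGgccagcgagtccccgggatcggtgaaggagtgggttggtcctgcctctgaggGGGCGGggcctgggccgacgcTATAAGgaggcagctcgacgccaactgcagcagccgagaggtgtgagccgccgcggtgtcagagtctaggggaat
Cdkn1a, upstream start: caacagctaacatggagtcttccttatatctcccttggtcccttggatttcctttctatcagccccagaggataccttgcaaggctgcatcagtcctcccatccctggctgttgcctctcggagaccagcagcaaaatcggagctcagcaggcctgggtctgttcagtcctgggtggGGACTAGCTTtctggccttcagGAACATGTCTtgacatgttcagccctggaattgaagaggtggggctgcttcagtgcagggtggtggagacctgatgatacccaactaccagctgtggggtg

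The downstream window held GGGCGG at 104 and 46 bases before the start and TATAAG at 25 bases before it. The upstream window held p53 half-sites at 73 and 51 bases before the start. Over all 32851 windows and on both strands, GGGCGG was found in 35.7%, TATAAG in 7.43% and a p53 half-site in 8.36%. CCAAT was searched as well, was present in 37.4% of windows and is not marked. A match of letters is a description and not a site of binding, and the motifs were chosen after the windows had been read.

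H2-K1 (chr17:34000284-34000583, minus strand) and H2-D1 (chr17:35262844-35263143, plus strand) encode the heavy chains of classical class I histocompatibility molecules, and they are shown because they share a probe and a start region. Capitals mark a palindrome of the NF-kappaB type, as in the class I enhancer, and TATAAA.

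H2-K1: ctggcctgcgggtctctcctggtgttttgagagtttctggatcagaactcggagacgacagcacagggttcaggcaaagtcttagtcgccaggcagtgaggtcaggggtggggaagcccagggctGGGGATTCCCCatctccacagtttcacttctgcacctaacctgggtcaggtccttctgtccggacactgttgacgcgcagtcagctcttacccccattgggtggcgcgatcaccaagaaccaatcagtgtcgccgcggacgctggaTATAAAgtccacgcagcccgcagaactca
H2-D1: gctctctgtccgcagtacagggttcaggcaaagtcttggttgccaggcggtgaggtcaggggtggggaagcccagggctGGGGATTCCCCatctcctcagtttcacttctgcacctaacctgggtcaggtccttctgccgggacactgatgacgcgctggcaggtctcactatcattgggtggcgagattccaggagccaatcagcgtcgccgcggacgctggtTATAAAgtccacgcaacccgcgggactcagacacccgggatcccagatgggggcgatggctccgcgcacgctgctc

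Aligned with gaps, 217 of 242 positions of this pair were the same (89.7%). The palindrome lay 125 and 171 bases before the start and was present in 0.0304% of all windows, and TATAAA, 26 bases before the start of H2-D1 but 21 bases after the annotated start of H2-K1, was present in 13.6% of all windows.

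Vmn1r168 (chr7:23540470-23540769, plus strand) and Vmn1r177 (chr7:23866400-23866699, minus strand) encode class 1 vomeronasal receptors, which detect pheromones. Capitals mark the 6 positions at which their windows differ. The other 294 of 300 positions (98%) were the same.

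Vmn1r168: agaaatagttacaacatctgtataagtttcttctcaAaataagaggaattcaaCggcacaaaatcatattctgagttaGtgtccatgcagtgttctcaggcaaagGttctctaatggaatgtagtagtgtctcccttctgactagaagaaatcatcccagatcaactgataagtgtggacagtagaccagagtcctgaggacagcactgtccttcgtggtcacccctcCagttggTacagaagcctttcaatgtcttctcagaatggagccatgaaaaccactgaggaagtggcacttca
Vmn1r177: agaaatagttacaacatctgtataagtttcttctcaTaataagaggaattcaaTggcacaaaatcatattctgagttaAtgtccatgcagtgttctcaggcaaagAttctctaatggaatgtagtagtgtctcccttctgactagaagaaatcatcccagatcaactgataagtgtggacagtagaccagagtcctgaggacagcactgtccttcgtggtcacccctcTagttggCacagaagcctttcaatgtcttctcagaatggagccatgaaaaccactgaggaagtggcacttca

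Gm3558 (chr14:7568517-7568816, minus strand) and Gm3696 (chr14:7105454-7105753, minus strand) are predicted genes of a repeated cluster and are shown as the members of a list of 18 genes that give the set its name. Capitals mark a CArG box, the core letters of a serum response element, and GGGCGG on either strand.

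Gm3558: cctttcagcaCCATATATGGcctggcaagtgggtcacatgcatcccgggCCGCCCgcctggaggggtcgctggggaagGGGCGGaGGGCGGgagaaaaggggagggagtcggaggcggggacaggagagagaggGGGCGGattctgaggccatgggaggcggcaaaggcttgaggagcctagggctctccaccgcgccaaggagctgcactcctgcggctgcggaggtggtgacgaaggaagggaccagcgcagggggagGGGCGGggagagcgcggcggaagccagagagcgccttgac
Gm3696: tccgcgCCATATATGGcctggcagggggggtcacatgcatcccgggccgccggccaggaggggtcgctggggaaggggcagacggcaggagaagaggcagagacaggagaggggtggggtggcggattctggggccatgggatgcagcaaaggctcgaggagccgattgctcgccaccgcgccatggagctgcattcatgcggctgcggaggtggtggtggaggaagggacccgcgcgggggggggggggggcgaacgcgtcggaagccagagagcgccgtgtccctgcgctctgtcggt

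The pair had 244 of 298 aligned positions in common (81.9%). These CArG letters lay near the far end of both windows, at 240 and 244 bases before the start, and was present in 0.0761% of all windows. GGGCGG was found 5 times in the Gm3558 window and 0 times in that of Gm3696.

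DKO buds were set against control buds to find transcripts that differ in buds of the double floxed genotype with Shhcre. Values are log2 expression values, and a change is the DKO mean minus the control mean on that scale, with the standard error (SE) from limma, a linear model that shares information on the spread between probes. Adjustment for multiple tests (Benjamini-Hochberg) ran over all 35556 probes, and an adjusted p under 0.05 is named a call. Of the 1621 shared probes, 5 rose in the DKO buds and 14 fell by this test, 1.17% in all, against a background of 0.585% of all probes. By direction, 0.308% of shared probes rose against 0.231% of all probes, and 0.864% fell against 0.354%. Among probes with 1 gene, 0.698% were called (0.422% fell), and among unnamed probes 0.305%.

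These 19 calls are fewer observations than they appear to be. They carried 9 gene lists and 16 distinct sets of array values, since some probes hold the same 6 values, and they joined into 7 sets of lists that have genes in common, 4 that rose and 3 that fell. The median change of the shared probes was 0.01 and that of all probes 0.00. The median absolute change was 0.0481 on shared probes, 0.0561 on single-gene probes, 0.0764 on unnamed probes and 0.0612 on all probes. A difference of 1.5-fold or more was seen on 341 of all 35556 probes, of which 213 were unnamed and 116 named a single gene. Of the 1621 shared probes, 12 differed by that much. Of these 12 probes, 9 belong to the single chromosome 4 set described below. All 19 called probes had DKO and control values that did not overlap, as had 309 of the 1621 shared probes (19.1%) and 16.5% of all probes. DKO lay above on 9.13% and below on 9.93% of shared probes, below on 10.4% of single-gene probes, and above on 5.99% and below on 6.21% of unnamed probes. At an unadjusted p under 0.05 the shared probes stood at 162 (9.99%), and 10.2% of all probes passed that limit.

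The calls were unevenly spread over the kinds of shared probe. Of 136 probes on which every listed name is a predicted or clone name, 14 were called (10.3%) and all 14 fell. Of the 1485 with at least 1 established gene name, 5 were called (0.337%), all higher. Lists whose genes lie on 1 chromosome in RefSeq held 18 of the calls on 1066 probes (1.69%), and lists that spread over 2 or more chromosomes held 1 on 536 (0.187%). These shares rest on the same 7 sets and are given without a test.

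The shared probe for Cdkn1a rose in the DKO buds, and by more than any other shared probe. Probe 10443463 names Cdkn1a, on chromosome 17, and 4930567H12Rik, which RefSeq places on chromosome 8, and neither gene had a probe of its own. Its log2 values were 7.66, 7.41 and 7.70 in controls 1 to 3 and 8.46, 8.54 and 8.20 in DKO 1 to 3. All 3 DKO values lay above the highest control. The group means were 7.59 ± 0.16 (SD, n = 3) and 8.40 ± 0.18 (SD, n = 3), a change of 0.81 (SE 0.11, 95% interval 0.53 to 1.08), 1.75-fold, with a limma adjusted p of 0.0484. The signal cannot be divided between the 2 genes from these data. The call lay close to the threshold. It was lost in each of the 6 fits that left out 1 array, where limma's adjusted p ran from 0.0812 to 0.161 and the change over all settings from 0.64 to 0.91.

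The class I histocompatibility call was the smallest of the 5 rises. Probe 10444780, which lists H2-D1, H2-K1 and LOC547349, had values of 8.95, 8.96 and 9.05 in the controls and 9.38, 9.47 and 9.33 in the DKO arrays. All 3 DKO values were above the controls, and the change of 0.41 (SE 0.06, 1.32-fold) passed with a limma adjusted p of 0.0487. That call was lost without each of the 6 arrays in turn, with limma adjusted p-values from 0.0685 to 0.183. The second probe of the same 3 genes, 10450075, read 7.77, 7.96 and 7.85 against 8.35, 8.40 and 8.15. Its change of 0.44 (SE 0.08) was of the same size with a wider spread, and it missed the threshold with a limma adjusted p of 0.106. H2-Q6 and H2-Q8, on a shared probe of non-classical class I genes, had a change of 0.26 (SE 0.09, limma adjusted p = 0.346).

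The rest of the histocompatibility group stayed near or below 0. The probe of H2-T9, H2-T22 and H2-T10 had a lowest control value of 7.89 and DKO values of 7.78, 7.73 and 7.73, so that the groups did not overlap, with a change of -0.20 (SE 0.05, limma adjusted p = 0.204), and the own probe of H2-T10 had a change of -0.19 (SE 0.06). H2-DMb1 and H2-DMb2, which load peptides onto class II molecules, had a change of 0.06. Over the 8 probes of the group, 1 rose, 3 had DKO values above all controls (7.53% of all probes do) and 1 had them below (8.96%), and the median change was 0.02 against 0.00 for all probes. No own probe exists on the array for H2-K1 or H2-D1, so the call for this pair rests on the shared probes. Leukocytes carry much class I, and of the leukocyte markers Ptprc, Csf1r, Tyrobp and Laptm5 no probe was called, with a median change of -0.21. Their part in the class I change was not tested.

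Vomeronasal receptor genes gave the other 3 calls that rose. These receptors belong to sensory neurons of the nose, and their probes are at low values here. Both probes that list Vmn1r168 and Vmn1r177 rose. Probe 10560814 read 6.29, 6.35 and 6.34 in control and 6.84, 6.76 and 6.82 in DKO, a change of 0.48 (SE 0.05, 1.40-fold, limma adjusted p = 0.0194). Probe 10550805 read 6.38, 6.36 and 6.31 against 6.87, 6.73 and 6.77, a change of 0.44 (SE 0.06, limma adjusted p = 0.0355). The spread within a group was small on both probes, and the groups were well apart. Both calls were kept without DKO 2 and lost without any other single array, with limma adjusted p-values up to 0.122 for 10560814 and 0.173 for 10550805. The 2 start windows differ at only 6 positions, as shown above, and which of the genes gave the signal cannot be told from a probe that lists both.

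The remaining class 1 receptors did not share this change. The 28 shared probes of the class had a median change of 0.03 and ran from -0.21 for Vmn1r186 and Vmn1r62 to 0.48. An unadjusted p under 0.05 was reached by 4 of them, where 10.2% of all probes pass. The probe with the third largest change, a list on chromosome 13 that begins with Vmn1r221, stood at 0.22 (SE 0.07, limma adjusted p = 0.288).

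Among class 2 receptors 1 probe was called, and its relatives on chromosome 7 lay on the same side. Probe 10559837 lists 11 genes from Vmn2r29 to Vmn2r48 on chromosome 7. It had values of 7.46, 7.46 and 7.50 in control and 7.98, 7.88 and 7.99 in DKO, a change of 0.48 (SE 0.05, 1.39-fold, limma adjusted p = 0.0228). The call was kept without DKO 2 and lost without any other single array, where limma's adjusted p reached 0.130. All 16 shared probes that list Vmn2r33 had a change above 0, from 0.15 to 0.48 with a median of 0.26. Of the 16, 15 passed an unadjusted p under 0.05, where 10.2% of all probes pass. Only 1 of the 16 was called, and these probes list many of the same genes, so they are not taken as independent readings. This subset was picked after the values were seen. The class as a whole, 38 probes, had a median of 0.05, and probes for receptors on other chromosomes lay near 0, such as Vmn2r88 with Vmn2r89 at -0.03 and Vmn2r93 with Vmn2r92 at -0.09. The own probe of Vmn2r52, which is listed on several of the chromosome 7 probes, had a change of -0.06 (SE 0.07).

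The largest changes of all shared probes were falls in a set of predicted genes and pseudogenes on chromosome 4. All 9 probes that list Gm21158, Gm3893, Gm7819, Gm10590, Gm5859 and 4933409K07Rik fell, 2 of them listing 4930578G10Rik as well. Probe 10504148 had values of 11.06, 10.86 and 11.05 in controls 1 to 3 and 9.46, 9.32 and 9.37 in DKO 1 to 3. The change was -1.61 (SE 0.07, 95% interval -1.78 to -1.43), 3.05-fold, with a limma adjusted p of 0.000841. The 9 changes ran from -1.61 to -1.41 with limma adjusted p-values from 0.000841 to 0.00149. The 9 probes held 8 distinct sets of values and have most of their listed genes in common, so they are counted as 1 observation on the locus rather than 9. Of the 7 sets, this one alone kept its calls without each of the 6 arrays in turn, with limma adjusted p-values from 0.00359 to 0.0185.

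Of the 7 genes of this set, only Gm10590 and 4930578G10Rik have own probes, and these lay on the other side of 0. The second of these genes is listed on 2 of the 9 shared probes. Gm10590 has 4 single-gene probes, which hold the same values, 9.58, 9.74 and 9.57 in control and 10.39, 10.02 and 9.98 in DKO. Their change was 0.50 (SE 0.12) with DKO above every control, and limma's adjusted p of 0.172 missed the threshold. The own probe of 4930578G10Rik read 8.27, 8.38 and 8.51 against 9.64, 8.93 and 8.81, a change of 0.74 (SE 0.21, limma adjusted p = 0.258), again with DKO above every control. So a listed gene had lower values in DKO on the shared probes and higher, uncalled values on a probe that names it alone. Which copy each probe reads was not determined here.

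Chemokine genes of chromosome 4 supply a further pair of shared lists from the same chromosome. The 3 probes that list Ccl27a and Ccl27b, skin chemokines, had changes of 0.22, 0.23 and 0.23. Of these, 10512315 read 10.15, 10.05 and 10.10 in control and 10.25, 10.32 and 10.37 in DKO, with DKO above every control and a limma adjusted p of 0.204. The 4 probes that list Ccl21a, Ccl21b and Ccl21c, ligands that guide lymphocytes and dendritic cells through Ccr7, hold the same values of 8.47, 8.16 and 8.34 against 9.49, 8.09 and 8.43. Only DKO 1 was high there, the groups overlapped, and the change of 0.35 had an SE of 0.34 (limma adjusted p = 0.847).

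Another set of predicted genes, a cluster of repeats on chromosome 14 with some members on chromosome 17, was lower throughout. All 18 probes whose lists include Gm3558 or Gm3696 or their relatives had a change below 0, from -0.60 to -0.30 with a median of -0.53. On 17 of the 18 every DKO value lay below every control, where 8.96% of all probes do. An unadjusted p under 0.05 was reached by 17, where 10.2% of all probes pass. Only 2 were called, probes 10417446 and 10417452, which list 18 genes and hold the same values of 10.16, 10.01 and 10.16 in control and 9.62, 9.40 and 9.51 in DKO. Their change was -0.60 (SE 0.08, 1.52-fold, limma adjusted p = 0.0355), and the call was lost without each of the 6 arrays in turn, at limma adjusted p-values of 0.0536 to 0.171. On 10412517, a probe with higher values that also lists Jpt2, the values were 11.85, 11.94 and 11.79 against 11.43, 11.24 and 11.44, a change of -0.49 (SE 0.07, limma adjusted p = 0.0564).

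DKO 2 was the lowest DKO array on all 18 of these probes, and control 2 was the lowest control on 15. On 10417458, for example, the controls read 9.92, 9.63 and 9.81 and the DKO arrays 9.53, 8.90 and 9.18, a change of -0.58 (SE 0.16) that is nearly as large as the called ones with a limma adjusted p of 0.245. The genes of the called list have no own probe. The only listed gene of the whole set with an own probe was Jpt2, which read 12.09, 12.09 and 12.06 in control and 12.03, 12.11 and 12.07 in DKO, a change of -0.01 (SE 0.05).

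The third set that fell consists of 14 probes on chromosome 12 that list Gm4983, 2410018L13Rik, 3110053B16Rik and neighbours. All 14 had changes below 0, from -0.50 to -0.09 with a median of -0.22. An unadjusted p under 0.05 was reached by 12, where 10.2% of all probes pass, and 3 were called. Probe 10394812, for Gm4983 and 2410018L13Rik, read 10.12, 9.95 and 10.05 in control and 9.43, 9.61 and 9.57 in DKO, a change of -0.50 (SE 0.07, limma adjusted p = 0.0484). Probes 10394809 and 10394816, for 3110053B16Rik and Gm4983, hold the same values, 11.25, 11.20 and 11.24 against 10.60, 10.83 and 10.77, and had a change of -0.50 (SE 0.07, limma adjusted p = 0.0477). The call of 10394812 was lost without each of the 6 arrays in turn, with limma adjusted p-values from 0.0595 to 0.210, and that of 10394809 was kept only without DKO 2.

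Here the own probes split by gene. Gm4983 fell on its own probe 10394823 as well, with values of 9.11, 9.02 and 9.02 in control and 8.67, 8.73 and 8.68 in DKO, a change of -0.36 (SE 0.05, limma adjusted p = 0.0484). Its other own probe had a change of -0.35 (SE 0.11, limma adjusted p = 0.303). The own probe of 2410018L13Rik read 7.35, 8.02 and 7.85 against 8.73, 8.18 and 8.70, a change of 0.80 (SE 0.21, limma adjusted p = 0.226). That of 3110053B16Rik had a change of 0.28 (SE 0.10, limma adjusted p = 0.427). Of the 3 genes on the called lists, then, Gm4983 is the one whose own probes lay on the same side as the shared ones.

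Several sets came close to the threshold. The genes of U1, the small nuclear RNA that recognises the start of an intron in splicing, occupy 9 probes that list Rnu1b1, Rnu1b2 and Rnu1b6. All 9 had DKO values below every control, where 8.96% of all probes do. Their changes ran from -0.49 to -0.40, with limma adjusted p-values from 0.0722 to 0.114. They hold only 3 sets of values, and the lowest adjusted p belongs to the set that read 10.73, 10.62 and 10.72 in control and 10.39, 10.18 and 10.22 in DKO. U1 has no poly(A) tail, whereas the labels state priming with a poly(T) oligomer.

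Bex1 and Bex4, small X-linked proteins of neuronal signalling, share probe 10601850, which read 9.03, 8.89 and 9.04 in control and 9.51, 9.32 and 9.59 in DKO. The change was 0.49 (SE 0.08, limma adjusted p = 0.0801). Their own probes gave nearly the same size, 0.43 (SE 0.09) for Bex1 and 0.46 (SE 0.11) for Bex4, with limma adjusted p-values of 0.127 and 0.172. The start windows of the pair agree at 287 of 290 aligned positions (99%), and all 3 probes lay on the same side. The predicted genes Gm8700, Gm906 and Gm904 on chromosome 13 had a change of 0.56 (SE 0.08, limma adjusted p = 0.0522) on probe 10405154, with values of 6.71, 6.77 and 6.94 against 7.46, 7.26 and 7.39, and 0.40 (limma adjusted p = 0.0659) on 10409208.

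Other lists stood on either side. Gm17695 with LOC102635990 had a change of -0.40 on each of 2 probes, with limma adjusted p-values of 0.0515 and 0.0573. The list of Phb, a mitochondrial prohibitin, and Fyb, a lymphocyte adaptor, read 10.91, 10.98 and 10.99 against 10.69, 10.70 and 10.67, a change of -0.27 (SE 0.05, limma adjusted p = 0.0801), and the own probe of Fyb had a change of -0.03. Zfp932 with Gm15446, zinc finger genes, had a change of -0.52 (SE 0.12, limma adjusted p = 0.147). The lymphocyte-regulated Xlr4a, Xlr4b and Xlr4c on the X chromosome had changes of 0.39, 0.50 and 0.50 on 3 probes, with limma adjusted p-values from 0.197 to 0.398, and on the widest of these, 5.29, 5.40 and 5.32 against 6.04, 5.39 and 6.08, DKO 2 stood with the controls.

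MicroRNA genes lie on 58 shared probes, mostly with their host transcripts, and none was called. On 8 of these probes the unadjusted p was under 0.05, where 10.2% of all probes pass. Per the labels, labelling was primed with a poly(T) oligomer, and which transcript each of these probes reads, precursor, host or another, was not determined. The largest changes belonged to Mir503, with its host C430049B03Rik on the X chromosome, and to Mir27b within Aopep on chromosome 13. Their mature sequences in RefSeq are given with the seed, bases 2 to 8, in capitals.

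mmu-miR-503-5p: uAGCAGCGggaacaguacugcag
mmu-miR-322-5p: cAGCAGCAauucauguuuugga
mmu-miR-27b-3p: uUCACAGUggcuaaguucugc
mmu-miR-24-3p: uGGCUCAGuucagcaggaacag

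The Mir503 probe read 8.02, 8.17 and 7.97 in control and 7.76, 7.80 and 7.79 in DKO, a change of -0.27 (SE 0.06, limma adjusted p = 0.177) with DKO below every control. Mir322, of the same host, had a change of -0.18 (SE 0.07), and Mir351, also of that host, -0.06 (SE 0.10). The Mir27b probe read 6.71, 6.71 and 6.74 against 6.54, 6.45 and 6.40, a change of -0.26 (SE 0.05, limma adjusted p = 0.126). Its neighbours in Aopep differed, with -0.22 (SE 0.07) for Mir23b and -0.04 (SE 0.07) for Mir24-1, and the own probe of Aopep had a change of 0.04 (SE 0.07). Probes within 1 host thus gave unequal changes, none of them past the threshold. The let-7 genes Mirlet7b and Mirlet7c-2, which have the same seed, had changes of 0.10 (SE 0.09) and -0.04 (SE 0.15).

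Most families showed no call. The lists were joined by family or locus into 44 groups of 5 or more probes, and 38 of them had none, of which 24 had no probe even at an unadjusted p under 0.05. A further 442 probes lay in 282 smaller groups, where the Cdkn1a probe was the only call.

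Housekeeping families with many processed copies had no call. The 241 ribosomal protein probes, parts of the large and small ribosomal subunits, had a median change of 0.00. At an unadjusted p under 0.05 there were 8, where 10.2% of all probes pass. The largest of them was for Rpl26 and Gm15772, which read 11.99, 11.98 and 11.83 against 11.78, 11.23 and 11.41, a change of -0.46 (SE 0.14, limma adjusted p = 0.284). The own probe of Rpl26 read 10.07, 9.81 and 9.90 against 10.23, 10.28 and 10.15, a change of 0.29 (SE 0.08, limma adjusted p = 0.234), on the other side of 0. The 25 probes of Gapdh, a glycolytic enzyme, all lay between 0.02 and 0.04. The Gapdh probe with the largest change, 10415444, had values of 13.39 to 13.47, close to the upper end of the scale. Its small change is therefore no measure of stability. The 34 probes of Hmgb1, a chromatin protein, lay between 0.01 and 0.15, all above 0, and the 15 probes of the splicing proteins of the Hnrnpa1 type between -0.10 and -0.02, all below 0. The probes of such a group list many of the same genes, so a common sign within it is taken as 1 observation. The own probe of Hmgb1 lay on the other side of 0, with a change of -0.10 (SE 0.06), and that of Gm5176, listed with it, had 0.03 (SE 0.06). The own probe of 3000002C10Rik, listed with Gapdh on 10415444, had a change of -0.21 (SE 0.05, limma adjusted p = 0.183). There DKO lay below every control, where 8.96% of all probes have that order.

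Histone genes, whose proteins are the substrates of the deacetylases, had 47 shared probes with changes from -0.05 to 0.10 and none at an unadjusted p under 0.05. The 18 probes that list H3c or H4c genes, for histones H3 and H4, ran from -0.05 to 0.05. Replicative histone messages carry no poly(A) tail. Among own probes of listed histone genes, H3c15 read 8.06, 7.80 and 7.70 in control and 7.19, 7.05 and 6.59 in DKO, a change of -0.91 (SE 0.17, limma adjusted p = 0.102), whereas the shared probe 10403941, which lists H3c15 among others, had a change of -0.01 (SE 0.04). H2bc4 had a change of 0.38 (SE 0.11, limma adjusted p = 0.272) on its own probe. The shared list and the single gene thus read differently, and neither passed the threshold.

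Structural and blood genes on shared probes had no call. The highest value on any array was between 14.21 and 14.27, and the actin, alpha-tubulin and alpha-globin probes lay at 13.33 to 13.75, close to that end of the scale, so their small changes are no measure of stability. The 4 probes of the cytoplasmic actins Actg1 and Actb ran from -0.05 to 0.04. The alpha-tubulin lists of Tuba1a, Tuba1b and Tuba1c ran from -0.01 to 0.01, and the list of the beta-tubulins Tubb2a and Tubb2b read 9.44, 9.33 and 9.41 against 9.22, 9.12 and 9.26, a change of -0.19 (SE 0.06, limma adjusted p = 0.301) with DKO below every control. The own probe of Tubb2b had a change of -0.22 (SE 0.05) and that of Tubb2a -0.09 (SE 0.05). That of Tuba1a, at lower values than the alpha-tubulin lists, read 12.93, 12.88 and 12.92 against 12.76, 12.86 and 12.71. Its change was -0.13 (SE 0.05, limma adjusted p = 0.488), with DKO below every control, where 8.96% of all probes have that order. The adult alpha-globins Hba-a1 and Hba-a2 read 13.62, 13.65 and 13.65 against 13.65, 13.64 and 13.64, the beta-globin list had changes of 0.02 and 0.09, and the stress chaperones Hspa1a and Hspa1b had a change of 0.01 (SE 0.07).

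Families that belong to other organs gave changes near 0 as well. The 100 olfactory receptor probes had a median of 0.02 and a largest change of 0.20, for Olfr1512 and Olfr1513 (limma adjusted p = 0.397). The 58 antigen receptor segments had a median of 0.03 with none at an unadjusted p under 0.05, as had the 53 Pramel probes, with -0.03. The 64 Y-linked probes had a median of 0.04, and on 15 of them DKO lay above every control, where 7.53% of all probes do. Xist and the Y-linked single-gene probes varied within both groups and overlapped between them. Every array read both, with Xist at 11.74 to 12.52 and the Y-linked Eif2s3y at 9.79 to 10.65. Whether each sample pooled embryos of both sexes was not tested. Interferons and interferon-induced genes had a median of 0.10 over 32 probes, and the largest change, for the guanylate-binding proteins Gbp2 and Gbp2b, was 0.28 (SE 0.11, limma adjusted p = 0.456).

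Small groups without a call could still lie on 1 side of 0. The 10 probes joined through Gm10662 ran from -0.21 to -0.06, and 5 of them passed an unadjusted p under 0.05, where 10.2% of all probes pass. The 6 probes joined through Amy2a2, a pancreatic amylase gene, ran from 0.07 to 0.09, with DKO above every control on 5, where 7.53% of all probes have that order, and they hold only 3 sets of values. The 6 probes joined through 4930467E23Rik ran from 0.13 to 0.31 with none at an unadjusted p under 0.05. Larger families spread to both sides, as in the 55 zinc finger probes, which ran from -0.52 to 0.30 with a median of -0.01. The 15 probes of keratins and keratin-associated proteins, structural proteins of epithelia and hair, ran from -0.01 to 0.15. Krt8 and Krt18, read on single-gene probes as cell type markers, were among the epithelium markers that fell.

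A single array set the spread in some groups. The 24 Snord116 probes, copies of an imprinted small nucleolar RNA, had changes from -0.18 to -0.13 with SEs of 0.34 to 0.39. On 10564163 the values were 7.53, 6.99 and 7.07 in control and 7.59, 6.08 and 7.38 in DKO, so DKO 2 alone was low and the groups overlapped. The 95% interval of the change on that probe ran from -1.12 to 0.76, and without DKO 2 the change was 0.29 (limma adjusted p = 0.532).

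Across the series the arrays were alike, with medians of 7.87 to 7.89 and correlations of 0.9915 to 0.997, and the residual spread was widest for DKO 2, with an SD of 0.16 against 0.0965 to 0.13 on the other arrays. The 2 Hdac1 probes were lower in all 3 DKO arrays by 1.20-fold and 1.21-fold, with limma adjusted p-values of 0.0716 and 0.0644 when all 35556 probes were tested, and the Hdac2 probe had a change of -0.04 (1.03-fold, adjusted p = 0.899) with overlapping groups. Whether these probes lie in the floxed exons was not determined, so the values do not settle how complete the deletion was. All 8 lung epithelium and 7 lung mesenchyme markers had a mean log2 value over the 6 arrays of 8.55 or more. All 4 endothelial markers and some cardiac muscle and leukocyte markers reached that level too, so it does not by itself identify the tissue. Of the epithelium markers 4 fell (Epcam, Sftpc, Krt8 and Krt18), with a median change of -0.53 over the list. Sftpc, the surfactant protein C gene, fell 5.18-fold to a DKO mean of 7.41 (limma adjusted p = 0.0124). DKO lay below every control on all 8 epithelium markers, the uncalled Nkx2-1, Cdh1, Foxa2 and Shh included, where 8.96% of all probes have that order. Further, 1 mesenchyme marker rose (Fgf10), and 1 of 5 cardiac muscle markers rose (Myl7). No endothelial, erythroid, leukocyte, liver or neural marker was called. The liver list had a median change of 0.34, with Alb at 0.96, Afp at 0.53 and Apoa2 at 0.15. DKO lay above every control on these 3, where 7.53% of all probes have that order. The mean level of the liver list was 7.17 to 7.40 in control and 7.52 to 7.91 in DKO. The cardiac list had a median of 0.30. DKO lay above every control for its Myl7, Tnnt2 and Myl4, where 7.53% of all probes have that order, and overlapped with control for Nppa and Myh6. DKO lay below every control for Csf1r, Tyrobp and Laptm5 of the leukocyte list, where 8.96% of all probes have that order. The mean level of the epithelium list was 9.80 to 9.95 in control and 9.12 to 9.22 in DKO, and the part of these marker lists in the changes of the shared probes was not tested.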

How the data were processed

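RNA from 3 control and 3 DKO lung bud samples was measured, with 1 array for each sample. The authors deposited log2 expression values, and, per the submitters' processing notes, they used RMA, oligo and limma (no versions given); that the base is log2 was read from the values (3.42 to 14.27). Labelling started from 100 ng of total RNA with a poly(T) primer, per the labels' protocols. No value was changed here. All 35556 probes were fitted together with limma 3.58.1 in R 4.3.3 on the group alone, with two-sided tests, Benjamini-Hochberg adjustment and a threshold of 0.05, and the script was tested on simulated data. All columns of per-sample values were used.

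Shared probes were grouped by family names or by genes that their lists have in common. The named probes were up to 12 called probes of largest rise and up to 12 of largest fall outside lists of predicted names. Only 5 rises and 0 falls met that rule. In each group of 5 or more probes, up to 3 called probes, or else the 1 with the largest change, were named. Probes of a fixed list of lung, cell cycle and abundant genes were named as well. Probes near the threshold, the Vmn2r33 subset, own probes and other probes of the called sets were added after their values were seen. Members and lists were chosen with earlier results of these data known. Chromosomes come from RefSeq, whose build may differ from that of the array annotation, and start windows and mature microRNAs from RefSeq, build GRCm38.p6.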

Additional observations from a re-analysis of the deposited data

How the results depend on the processing

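The number of shared probes called by limma, 5 higher and 14 lower, moved with the processing more than the changes did. Over the named probes, 890 of the alternative values were counted as kept, 84 lost and 8 gained a call, and 0 turned a called direction. Most named probes had no call to lose, and an uncalled value that turned sign was counted as kept. The Snord116 probe 10564163, for example, had a change of -0.18 in the main fit and 0.12 with array weights. With array weights 34 were higher and 61 lower. Without moderation (ordinary least squares) the counts were 0 and 0, where 162 passed an unadjusted p under 0.05 in the moderated fit. With a second quantile normalization 3 were higher. When probes without a listed gene were left out of the adjustment, 14 were higher and 33 lower. Without the dimmest 30% and the dimmest 50% of probes, 22 and 23 were lower, and the Vmn1r168 probes were among those removed. Leaving out 1 array in turn gave 0 to 9 higher and 9 to 11 lower, with the 9 higher reached without DKO 2. Probes that list exactly 2 genes gave 3 higher and 3 lower, and lists with 2 or more genes left after small RNAs and predicted genes gave 0 lower. With 1 probe for each set of equal values, an alternative chosen after seeing the data, 5 were higher and 11 lower. Over all probes the counts were 82 higher and 126 lower, 755 and 729 with array weights, 211 and 308 with named probes only, and 0 and 2 without moderation.

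With the replicate number as a block 0 shared probes were higher and 9 lower, and over all probes 3 and 16. Deviations of same-numbered arrays correlated at -0.031, 0.067 and 0.103, within the range of the other pairs (-0.211 to 0.178). These values gave no sign of a pairing by number, but with 3 arrays a group they cannot show that there was none. Control 1 correlated more with DKO 2 (0.138) than with DKO 1.

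The precision is limited by 3 arrays a group. A shared probe can sum several transcripts, and many shared probes repeat the same readings, so counts of probes overstate the number of loci.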
